A study of Homo sapiens with 5 samples.

Results

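RNA polymerase III makes short, structured RNAs that are not translated and carry no poly(A) tail. The 5 of them described here are U6, 7SK, Metazoa_SRP (the RNA of the signal recognition particle, also called 7SL), RMRP and RPPH1, found by their symbols as 5 of the 28442 gene rows of the deposited count table. All 5 have counts in all 5 libraries. The members were chosen by their names with earlier results from the counts of all 5 libraries known, so those counts selected them, and the levels below are a description and carry no test.

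The cells were of the TOV21G line, which was established from a human ovarian clear cell carcinoma and grown in serum-containing medium, in a series whose title ties HDAC6 activity to ARID1A-mutated ovarian cancers. HDAC6 is a deacetylase of the cytoplasm, with tubulin as its best known substrate. The libraries were shHDAC6 (a hairpin against HDAC6), ACY1215 and CAY10603 (small-molecule HDAC6 inhibitors), shControl (a control hairpin) and the drug vehicle, with 1 library each. Libraries came from Trizol-extracted total RNA and a stranded kit for total RNA, which keeps RNAs without a poly(A) tail. Cells infected with virus were selected in puromycin. The sources used here do not give the hairpin clone or the doses and times of the drugs, nor whether the libraries are from separate cultures.

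U6, the RNA at the catalytic core of the spliceosome, pairs with the 5′ splice site. 7SK holds the elongation kinase P-TEFb in an inactive particle with HEXIM1, LARP7 and MEPCE. The signal recognition particle RNA is the scaffold of the particle that brings ribosomes making secreted and membrane proteins to the endoplasmic reticulum, RMRP is the RNA of RNase MRP, which cuts precursor ribosomal RNA, and RPPH1 is the RNA of RNase P, which trims the 5′ end of tRNA precursors. The genes of U6, 7SK, RMRP and RPPH1 are read from promoters that lie outside the transcribed sequence and bind the SNAPc factor, whereas the gene of the signal recognition particle RNA also uses elements inside it.

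The reference sequences of 7SK, which differed in sign from the other RNAs, and of RMRP and RPPH1, whose rows hold 1 transcript each, are shown here. They were taken from GENCODE 29 transcripts on GRCh38, whereas the submitters' processing notes name hg19, so the coordinates belong to the reference entry only. Each is 1 annotated noncoding transcript, which the annotation gives no coding part or UTR.
RN7SK, at chr6:52995621-52995948 on the plus strand, has 328 bases and a GC content of 58.2%, and its first 300 bases are shown. Capitals mark its 3 GATC motifs, the first at base 12 and the last at base 63, as a description of the letters.
RN7SK: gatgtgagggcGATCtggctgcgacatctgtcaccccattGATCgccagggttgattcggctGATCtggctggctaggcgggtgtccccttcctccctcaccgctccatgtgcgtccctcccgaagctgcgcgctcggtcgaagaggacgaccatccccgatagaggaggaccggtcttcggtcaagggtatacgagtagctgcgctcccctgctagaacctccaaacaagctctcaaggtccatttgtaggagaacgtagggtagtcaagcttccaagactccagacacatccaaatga
RMRP, at chr9:35657751-35658018 on the minus strand, has 268 bases and a GC content of 63.1%. RPPH1, at chr14:20343075-20343407 on the minus strand, has 333 bases and a GC content of 64.6%, and its first 300 bases are shown. Capitals in both mark the longest run of letters that they share, 9 bases, as a description of the letters and not of a site.
RMRP: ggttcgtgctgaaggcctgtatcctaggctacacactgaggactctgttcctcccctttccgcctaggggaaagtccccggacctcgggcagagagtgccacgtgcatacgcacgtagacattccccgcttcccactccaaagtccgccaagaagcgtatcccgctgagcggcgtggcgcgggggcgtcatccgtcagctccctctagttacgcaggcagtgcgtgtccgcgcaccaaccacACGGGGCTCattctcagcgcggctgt
RPPH1: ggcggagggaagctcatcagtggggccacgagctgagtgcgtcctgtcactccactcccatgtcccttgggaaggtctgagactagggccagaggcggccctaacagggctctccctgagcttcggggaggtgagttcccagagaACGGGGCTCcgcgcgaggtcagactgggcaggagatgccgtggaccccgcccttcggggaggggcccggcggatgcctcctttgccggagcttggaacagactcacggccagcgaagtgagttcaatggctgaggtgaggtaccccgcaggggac

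The row for U6 joins 179 transcripts, the row for 7SK 127 and the row for the signal recognition particle RNA 108. Reads of near-identical copies can be split between them, and which copies were read cannot be told from these rows. GENCODE 29 lists 1277 genes and pseudogenes under the name of U6, 680 under that of the signal recognition particle RNA and 294 under that of 7SK. RMRP (Entrez 6023) and RPPH1 (Entrez 85495) have 1 transcript each in the deposited table, and their rows are the least open to such sharing.

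Levels are given as CPM, counts scaled to the size of the library and by TMM factors over the 5 libraries, with exact intervals at a confidence level of 95% that cover counting error only. Total counts were between 43498805 and 57442767 per library. HDAC6 itself stood at 29.2 CPM in shHDAC6 against 48.0 CPM in shControl, and at 33.1 CPM in ACY1215 and 48.2 CPM in CAY10603 against 51.0 CPM in vehicle. Of 7 markers of ovarian clear cell carcinoma, 6 reached a mean of 5 CPM, and NAPSA was under 1 CPM in every library, at 0.398 CPM at most. Markers of other cells were low. The 5 leukocyte genes summed to between 1.73 and 4.98 CPM, the 3 endothelial genes to at most 0.475 CPM, the 3 erythroid genes to at most 0.103 CPM, and the 5 fibroblast genes to between 25.0 and 38.0 CPM, most of it COL1A2.

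The 5 RNAs took 4.91% of all counts in shHDAC6, 4.13% in ACY1215, 3.05% in CAY10603, 2.32% in shControl and 2.79% in vehicle. Their share was therefore higher in each intervention than in both controls. On the authors' FPKM scale, which divides by a length, the signal recognition particle RNA was the highest row of the table in shHDAC6, ACY1215, CAY10603 and vehicle, and 7SK was the highest in shControl. RMRP ranked between 3 and 4 on that scale and RPPH1 between 7 and 27. These RNAs, U6 aside, were thus among the most abundant rows per length in every library. For RMRP and RPPH1 the length divided by was shorter than the reference transcript. By count RMRP ranked between 18 in shHDAC6 and 110 in shControl, and RPPH1 between 44 in shHDAC6 and 369 in shControl.

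**Figure D1:**
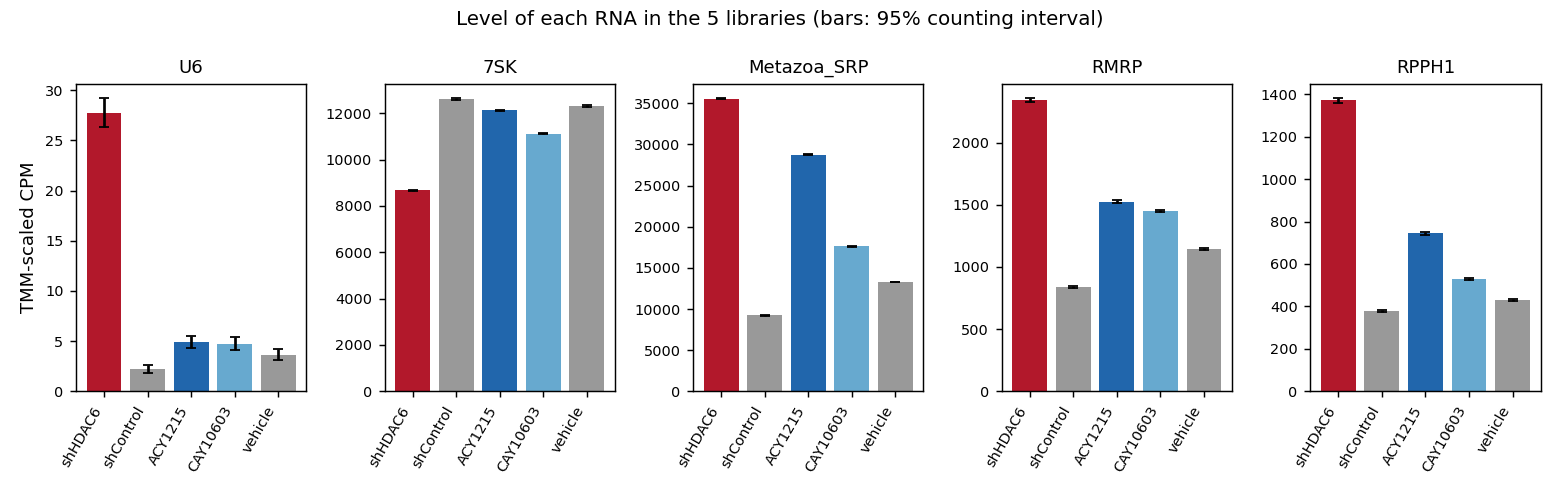
TMM-scaled CPM of each RNA in the 5 libraries (vertical axes start at 0 and differ between panels), with bars for the counting interval at 95%. U6, Metazoa_SRP, RMRP and RPPH1 stand highest in shHDAC6 and lowest in shControl, whereas 7SK stands lowest in shHDAC6, at 8676 CPM, and between 11119 and 12614 CPM in the other libraries.

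U6 had the widest range. It stood at 27.7 CPM (26.3 to 29.2) in shHDAC6 against 2.22 CPM (1.85 to 2.64) in shControl. In the drug libraries it stood at 4.92 CPM (4.34 to 5.56) in ACY1215 and 4.71 CPM (4.12 to 5.37) in CAY10603, against 3.65 CPM (3.11 to 4.25) in vehicle. The shHDAC6 library therefore lay far above the others, and the drugs could not be told apart from each other by counting error. The interval of CAY10603 overlapped that of vehicle, though the counting interval of their log2 fold, 0.07 to 0.67, did not include 0. These levels rest on 1464 reads in shHDAC6, 257 in ACY1215, 228 in CAY10603, 128 in shControl and 163 in vehicle. U6 reached 5 CPM in 1 library and was under it in 4, so it entered the set of genes compared through the library in which it was high.

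The signal recognition particle RNA took the largest share of counts among the 5 in every library but shControl, where 7SK did. It stood at 35555 CPM in shHDAC6, 28770 CPM in ACY1215 and 17617 CPM in CAY10603, against 9237 CPM in shControl and 13297 CPM in vehicle. This single row held 3.64% of all counts in shHDAC6 against 0.927% in shControl, and 2.75% in ACY1215 and 1.75% in CAY10603 against 1.37% in vehicle. All 5 levels differed beyond counting error, and the order placed each intervention above both controls.

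The RNAs of the related ribonucleoproteins RNase MRP and RNase P followed that order. RMRP stood at 2342 CPM in shHDAC6, 1523 CPM in ACY1215 and 1450 CPM in CAY10603, against 842 CPM in shControl and 1145 CPM in vehicle. RPPH1 stood at 1371 CPM in shHDAC6, 744 CPM in ACY1215 and 530 CPM in CAY10603, against 380 CPM in shControl and 430 CPM in vehicle. Here too the interventions lay above both controls, and the 5 levels of each RNA had counting intervals that did not overlap. How many of all rows have that order was not counted, here or for the signal recognition particle RNA. The RPPH1 count was 0.585 (0.580 to 0.591) of the RMRP count in shHDAC6 against 0.452 (0.445 to 0.459) in shControl. It was 0.488 (0.482 to 0.494) in ACY1215 and 0.365 (0.360 to 0.370) in CAY10603, against 0.376 (0.369 to 0.382) in vehicle. The RNA of RNase P was thus higher relative to that of RNase MRP in shHDAC6 and ACY1215 than in their controls, while the intervals of CAY10603 and vehicle overlapped.

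7SK ran the other way. It stood at 8676 CPM in shHDAC6, 12126 CPM in ACY1215 and 11119 CPM in CAY10603, against 12614 CPM in shControl and 12302 CPM in vehicle. Each intervention lay below both controls, by a small margin in ACY1215. How many of all rows have that order was not counted either.

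The knockdown comparison sets shHDAC6 against shControl. The log2 fold of U6 was 3.62 (3.38 to 3.92), a 12.3-fold difference and the highest of the 10738 gene rows with a mean of at least 5 CPM. U6 passed that mean only through the shHDAC6 library, so nothing is read from its rank. The signal recognition particle RNA followed with a log2 fold of 1.94 (1.94 to 1.95), RPPH1 with 1.85 (1.83 to 1.87) and RMRP with 1.48 (1.46 to 1.49), at ranks 6, 7 and 16 from the top. 7SK had a log2 fold of -0.54 (-0.55 to -0.53). Thus 4 of the 5 RNAs were at least 2-fold higher, against 47 of 10738 rows (0.438%), and 0 were at least 2-fold lower, against 0.251% of rows. A fold above 0 was found for 4 of the 5, against 50.6% of rows. The members were listed from these counts, so nothing is read from that excess.

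Both drug libraries have the vehicle library as their control, so their folds share it. In ACY1215 the signal recognition particle RNA had a log2 fold of 1.11 (1.11 to 1.12), a 2.16-fold difference. RPPH1 had 0.79 (0.77 to 0.82), U6 had 0.43 (0.14 to 0.72), RMRP had 0.41 (0.40 to 0.43) and 7SK had -0.02 (-0.03 to -0.02). The signal recognition particle RNA was the 1 member at least 2-fold higher, against 179 of 10738 rows (1.67%), and 0 were at least 2-fold lower, against 3.04% of rows. Folds above 0 numbered 4 of 5, against 50% of rows. In CAY10603 the folds were smaller. The log2 folds were 0.41 for the signal recognition particle RNA, 0.37 (0.07 to 0.67) for U6, 0.34 for RMRP, 0.30 for RPPH1 and -0.15 for 7SK. None of the 5, a count of 0, was at least 2-fold higher, against 0.0279% of rows, or lower, against 0.242%. Again 4 of 5 had a fold above 0, against 51.7% of rows. With CAY10603 set over ACY1215 the log2 fold was -0.71 for the signal recognition particle RNA, -0.49 for RPPH1, -0.13 for 7SK, -0.07 for RMRP and -0.06 (-0.33 to 0.20) for U6, with 0 members at 2-fold in either direction against 3.29% of rows, and the doses are not given.

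The controls also differed from each other. In shControl over vehicle the log2 fold was -0.71 (-1.06 to -0.37) for U6, -0.53 for the signal recognition particle RNA, -0.44 for RMRP, -0.18 for RPPH1 and 0.04 for 7SK. The 4 RNAs that were higher in the interventions were thus lower in shControl than in vehicle, though 0 of them by 2-fold, against 0.894% of rows that were, and 0 members were 2-fold higher, against 0.512%. With vehicle in place of shControl the log2 folds in shHDAC6 were 2.91 for U6, 1.42 for the signal recognition particle RNA, 1.67 for RPPH1, 1.03 for RMRP and -0.50 for 7SK. With shControl in place of vehicle, U6 passed 2-fold in both drug libraries, at 1.13 in ACY1215 and 1.07 in CAY10603, and the signal recognition particle RNA had 1.64 and 0.93 in them.

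**Figure D2:**
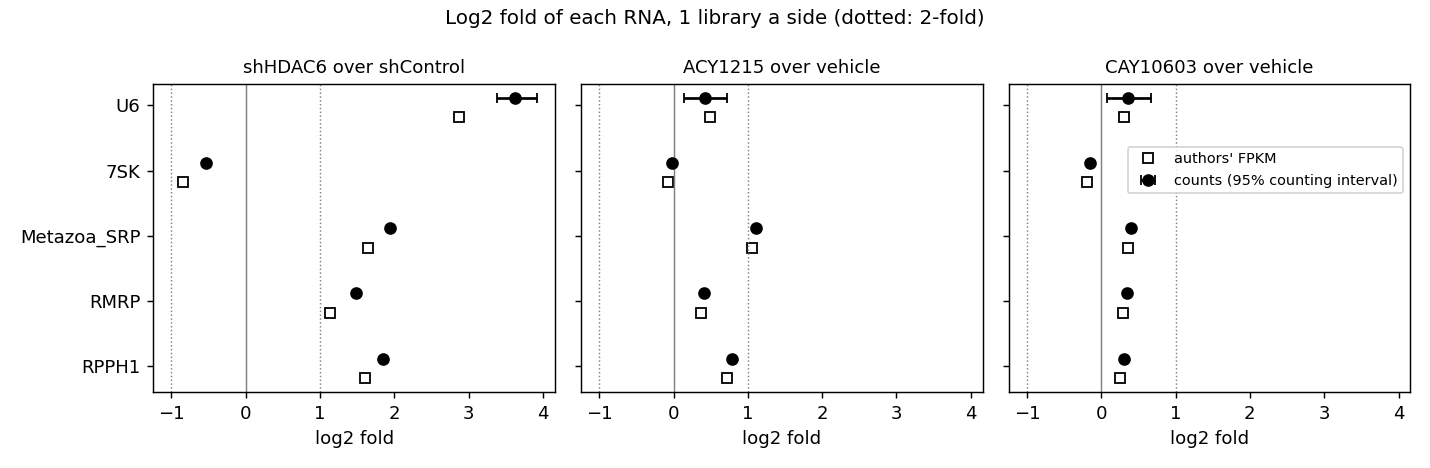
Log2 fold of each RNA in the 3 interventions over their own controls, from counts (filled, with the counting interval at 95%) and from the authors' FPKM values (open). U6, Metazoa_SRP, RMRP and RPPH1 lie right of 0 and 7SK left of it in every panel, and in shHDAC6 the FPKM points lie left of those from counts, at 2.87 against 3.62 for U6.

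The ratio of the signal recognition particle RNA to 7SK needs no scaling between libraries, since both come from the same library. It was 4.10 in shHDAC6, 2.37 in ACY1215 and 1.58 in CAY10603, against 0.732 in shControl and 1.08 in vehicle. Per length, on the FPKM scale, it was 4.09 in shHDAC6, 2.36 in ACY1215 and 1.58 in CAY10603, against 0.728 in shControl and 1.08 in vehicle. 7SK was thus the higher of the pair in shControl and the lower in the other 4 libraries, on either scale. The ratio was 5.60-fold higher in shHDAC6 than in shControl, 2.20-fold higher in ACY1215 and 1.47-fold higher in CAY10603 than in vehicle, and it was 0.678 of the vehicle value in shControl. RMRP and RPPH1 relative to 7SK were likewise 4.05-fold and 5.24-fold higher in shHDAC6 than in shControl. Such ratios show unequal change, not which RNA of a pair differed.

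In the fit over all 5 libraries, with the 3 interventions against the 2 controls and experiment type as a covariate, the log2 fold was 1.66 for U6 with a standard error of 0.70, 1.27 for the signal recognition particle RNA with 0.38, 1.09 for RPPH1 with 0.32, 0.83 for RMRP with 0.27 and -0.28 for 7SK with 0.24. At an adjusted p under 0.05, 0 of 13449 genes (0%) were called by edgeR's quasi-likelihood test, DESeq2 or limma-voom, and at an unadjusted p under 0.05 there were 100, 112 and 122 genes by these tools. The pooled values rest in part on the hairpin pair. With a library left out, the log2 fold of U6 was between 0.40 and 3.64, that of the signal recognition particle RNA between 0.80 and 1.95, that of RPPH1 between 0.57 and 1.85, that of RMRP between 0.38 and 1.48 and that of 7SK between -0.54 and -0.08. The values nearest 0 came without shHDAC6 or without shControl, and those farthest from 0 without vehicle.

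How long an RNA was taken to be differed between libraries. The count and the FPKM of a row together give the length by which the authors' FPKM divided it, here called the implied length, which RSEM makes shorter than the transcript by about the mean fragment length. Over 987 rows of 1 transcript with at least 1000 counts, the implied length was a median of 38.3 bases longer in shHDAC6 than in shControl, with a range of 36.1 to 40.2 from 5% to 95% of the rows. The median difference from vehicle was -4.74 bases in ACY1215 and -0.34 bases in CAY10603. The hairpin pair thus differed in this respect and the drug pairs hardly did.

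For short RNAs that shift is a large part of the length. The implied length of U6 was 5.07 bases in shHDAC6 against 2.92 bases in shControl, and 2.77 bases in ACY1215 and 3.13 bases in CAY10603 against 3.10 bases in vehicle. Those of 7SK and of the signal recognition particle RNA were 153 bases each in shHDAC6, against 121 and 122 bases in shControl. RMRP went with 122 bases in shHDAC6 against 93.7 bases in shControl, and RPPH1 with 193 against 159 bases. The log2 folds of shHDAC6 over shControl from FPKM, which take these lengths into account, were 2.87 for U6, 1.64 for the signal recognition particle RNA, 1.60 for RPPH1, 1.13 for RMRP and -0.85 for 7SK. Each kept its sign and its side of 2-fold on that scale, and whether fragment length had a part in the differences was not tested. U6 ranked between 8 and 103 in FPKM, a scale on which its counts were divided by between 2.77 and 5.07 bases, and its level per length is not read further.

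Other short rows had a wide spread of folds in the hairpin pair. Among the 13 further rows with an implied length under 100 bases in shControl, the median log2 fold of shHDAC6 over shControl was 0.32, with 8 above 0, 5 at least 2-fold higher and 1 at least 2-fold lower. Those 5, named after their values were seen, were the small nucleolar RNAs SNORD17, SNORD10, SNORD97 and SNORA79, and RNU12 of the minor spliceosome. The row at least 2-fold lower was SNORD8, also a small nucleolar RNA, at -1.02. Of 16 rows between 100 and 200 bases, 11 were above 0 and 4 at least 2-fold higher, with 2 at least 2-fold lower and a median of 0.21. SCARNA9L, a Cajal body RNA, was 1 of those 2 lower rows, at -1.62. The 222 rows between 200 and 500 bases had a median of -0.01 and the 10477 longer rows a median of 0.00. In ACY1215 over vehicle, 9 of the 13 rows under 100 bases were above 0, with a median of 0.11. In CAY10603 over vehicle 9 were, with a median of 0.19. Of the 16 rows between 100 and 200 bases, 6 were above 0 in ACY1215 (median -0.12) and 10 in CAY10603 (median 0.03). The implied lengths of 7SK and the signal recognition particle RNA in shControl were 121 and 122 bases, and their log2 folds in shHDAC6 were -0.54 and 1.94. Whether length had a part in any of these folds was not tested.

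**Figure D3:**
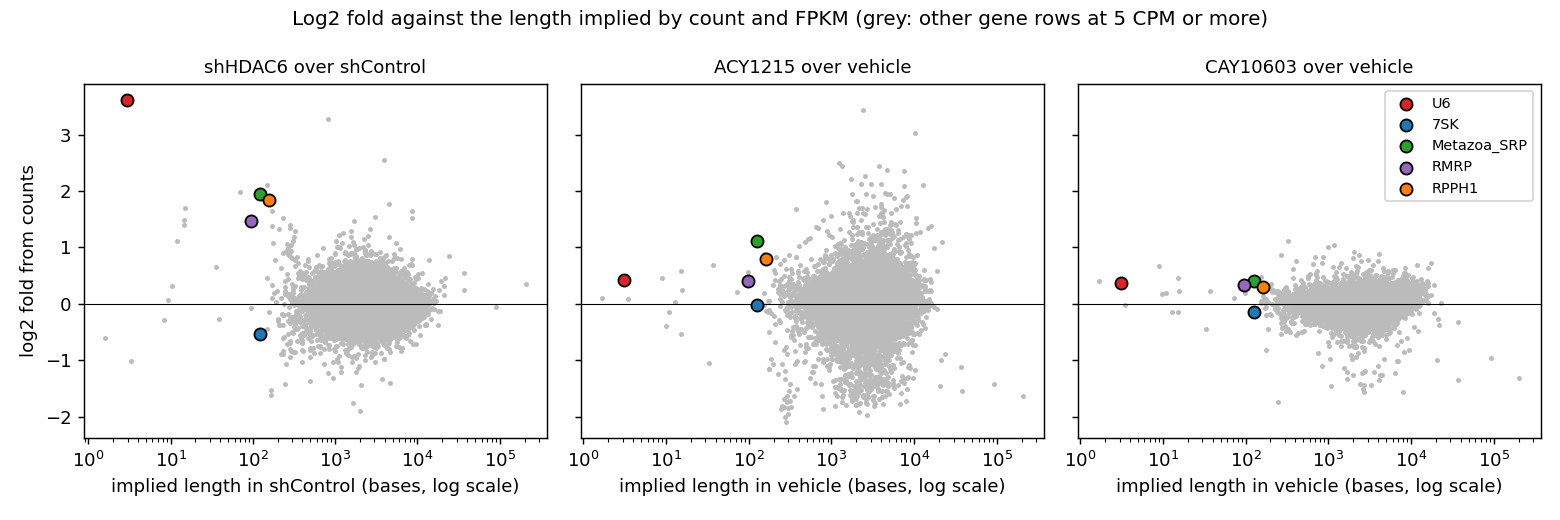
Log2 fold from counts of the 3 interventions over their own controls against the implied length in the control library (bases, log scale), with the 5 RNAs in colour and other rows with a mean of at least 5 CPM in grey. In shHDAC6 the 13 other rows under 100 bases spread widely around a median of 0.32. 7SK lies at -0.54, and RMRP, Metazoa_SRP and RPPH1 lie at 1.48 or more, with implied lengths between 93.7 and 159 bases in shControl. Whether length had a part in these folds was not tested.

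Few other RNA polymerase III transcripts were read. Of 28 listed symbols 12 had a row, 0 of these reached a mean of 5 CPM, and 7 had 0 counts in all libraries, among them the vault RNAs VTRNA1-1, VTRNA1-2, VTRNA1-3 and VTRNA2-1. Such a row has a limit of 3 counts, which is between 0.0520 and 0.0672 CPM by library. The Y_RNA row, for the RNAs of the Ro particle, stood at 4.89 CPM in shHDAC6 against 0.607 CPM in shControl, a log2 fold of 2.93 from counts and 2.21 from FPKM. In ACY1215 and CAY10603 it stood at 1.47 and 1.32 CPM against 0.918 CPM in vehicle. It joins 91 transcripts and its implied length was 4.63 bases in shHDAC6 against 2.60 bases in shControl, as with U6. BCYRN1, a primate RNA related to the signal recognition particle RNA, stood at 3.11 CPM in shHDAC6 against 2.64 CPM in shControl, a log2 fold of 0.23 from counts but -0.30 from FPKM, and at 4.10 and 2.96 CPM in ACY1215 and CAY10603 against 2.15 CPM in vehicle.

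Some structured RNAs made by RNA polymerase II also differed in the hairpin pair. In some lists of small RNAs the sum in each intervention lay above that in both controls. H/ACA small nucleolar RNAs summed to 242 CPM in shHDAC6, 235 in ACY1215 and 241 in CAY10603, against 158 in shControl and 217 in vehicle. In that library order, Cajal body RNAs summed to 265, 279 and 254 against 194 and 226 CPM. Polymerase II spliceosomal RNAs summed to 68.0, 42.3 and 43.8 against 18.9 and 38.1 CPM. The sum of C/D small nucleolar RNAs lay above both only in shHDAC6, at 217 against 164 and 168 CPM. Row by row, among those with a mean of at least 5 CPM, the hairpin pair was mixed. For C/D RNAs 4 rows were higher and 6 lower in shHDAC6 than in shControl, with a median log2 fold of -0.28. Cajal body RNAs had 4 higher and 3 lower, and H/ACA RNAs 5 and 1, where 50.6% of all rows were higher. RNU12, the U12 RNA of the minor spliceosome, stood at 45.4 CPM in shHDAC6 against 14 CPM in shControl, and at 32.6 and 32.4 CPM in ACY1215 and CAY10603 against 27.6 CPM in vehicle. It was the 1 of 12 rows for spliceosomal RNAs of this polymerase with a mean of 5 CPM or more. The U1 row, below that mean, stood at 9.72 CPM in shHDAC6 against 1.60 CPM in shControl. TERC, the longer RNA of telomerase, stood at 5.53 CPM in shHDAC6 against 6.28 CPM in shControl, and at 5.09 and 5.42 CPM in ACY1215 and CAY10603 against 2.96 CPM in vehicle. Replication-dependent histone mRNAs, which also lack a poly(A) tail, summed with the other listed histone genes to 5975 CPM in shHDAC6 against 3567 CPM in shControl, and to 2142 CPM in ACY1215 and 4950 CPM in CAY10603 against 5750 CPM in vehicle. In ACY1215 the histone sum was lower and the signal recognition particle RNA higher than in vehicle. Whether these differences are related was not tested.

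The transcripts of proteins that make these RNAs or bind them were measured beside them. Across 85 protein-coding genes of 7 lists with a mean of at least 5 CPM, the median log2 fold was -0.02 in shHDAC6, -0.03 in ACY1215 and 0.01 in CAY10603, beside 0.00, 0.00 and 0.01 over all 10738 rows. In shHDAC6 their folds ran from -0.58 to 0.67 and 0 were 2-fold apart. In ACY1215 they ran from -1.06 to 0.75 with 1 gene past 2-fold, and in CAY10603 from -0.29 to 0.34 with 0. U6, the signal recognition particle RNA, RPPH1 and RMRP lay above that range in shHDAC6. In ACY1215 the signal recognition particle RNA and RPPH1 did. In CAY10603 the signal recognition particle RNA, U6 and RMRP did by small margins, RMRP at 0.341 against 0.3404. 7SK lay within the range in all 3. The lists were chosen with earlier results of these data known.

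Of 18 subunits of RNA polymerase III, 7 were higher and 11 lower in shHDAC6 (median -0.05), 11 higher in ACY1215 (median 0.06) and 12 higher in CAY10603 (median 0.06). POLR3G, the subunit typical of stem cells and tumours, had log2 folds of -0.43 in shHDAC6, 0.75 in ACY1215 and 0.34 in CAY10603. Among 19 genes of initiation and regulation, 12 were higher in shHDAC6 (median 0.06), 7 in ACY1215 (median -0.09) and 9 in CAY10603 (median -0.02). SNAPC5 and SNAPC2 of the SNAPc factor had -0.47 and 0.54 in shHDAC6, and GTF3C6 and GTF3C2 of the factor that binds internal promoters had -0.41 and 0.52. The machinery therefore showed no common direction.

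The 7SK particle had 6 of its 7 listed genes at 5 CPM, 4 higher and 2 lower in shHDAC6 with a median of 0.14. LARP7, which binds the end of 7SK and keeps it stable, had log2 folds of -0.20 in shHDAC6, -0.28 in ACY1215 and 0.01 in CAY10603. MEPCE, which caps 7SK, had 0.35 in shHDAC6, -0.98 in ACY1215 and -0.01 in CAY10603. In the ACY1215 library MEPCE stood at 10.7 CPM against 21.3 CPM in vehicle, while 7SK differed by a log2 fold of -0.02 between them. HEXIM1, which inhibits the kinase when bound to 7SK, had -0.19 in shHDAC6, 0.31 in ACY1215 and 0.18 in CAY10603.

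Of 8 genes for the proteins of the signal recognition particle and its receptor, 1 was higher and 7 were lower in shHDAC6 (median -0.08), where 50.6% of all rows were higher. Of the same 8, 5 were higher in ACY1215 (median 0.03) and 7 in CAY10603 (median 0.04). SRP14, which binds the Alu domain of the RNA, stood at 166 CPM in shHDAC6 against 247 CPM in shControl, a log2 fold of -0.57, and at 199 and 207 CPM in ACY1215 and CAY10603 against 198 CPM in vehicle. SRP68 had -0.34 in shHDAC6, and SRPR, the receptor subunit alpha, had 0.19.

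Among proteins shared by RNase P and RNase MRP, 9 of 11 listed genes reached 5 CPM, with 4 higher in shHDAC6 (median -0.09), 4 in ACY1215 (median -0.03) and 4 in CAY10603 (median 0.00). Their extremes in shHDAC6 were RPP40 at -0.39 and POP5 at 0.46. Of 16 genes for the U6 particle and its processing, 8 were higher in shHDAC6 (median 0.01), 4 in ACY1215 (median -0.24) and 7 in CAY10603 (median -0.04). LSM5 and LSM2, from the ring that binds the 3′ end of U6, had -0.58 and 0.67 in shHDAC6, and TUT1, which adds uridines to that end, had 0.65. Of 9 genes for turnover and export, 2 were higher in shHDAC6 (median -0.04), 5 in ACY1215 (median 0.03) and 5 in CAY10603 (median 0.02). TOE1, a 3′ end trimming enzyme of small RNAs, was the gene past 2-fold in ACY1215, at 9.04 CPM against 18.9 CPM in vehicle.

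**Figure D4:**
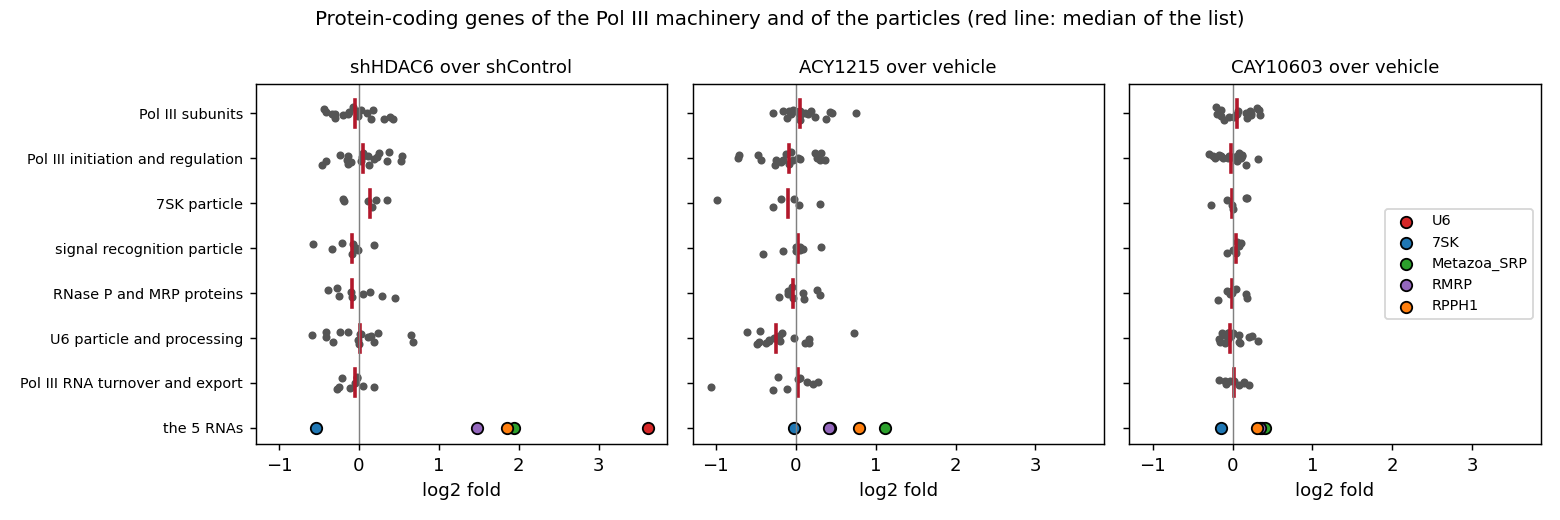
Log2 fold of each protein-coding gene of the 7 lists (grey points, with the list's median in red) and of the 5 RNAs (bottom row) in the 3 interventions over their own controls. In shHDAC6 the proteins lie between -0.58 and 0.67, while 4 of the 5 RNAs lie at 1.48 or more.

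The rows most like each RNA over the 5 libraries were found by the Pearson correlation of log2 CPM, among rows with a mean of at least 5 CPM and a range of at least 0.5 of that of the RNA. With 5 libraries this is a description of a shared order and size, and short rows share the libraries' fragment lengths. U6 was most like SNORD17 (r = 0.996), RPPH1 (0.957) and SLMO2-ATP5E (0.870). The signal recognition particle RNA was most like SCARNA10 (0.966), a Cajal body RNA, then RMRP (0.9502) and RPPH1 (0.940). Another member stood among the 3 nearest rows of U6, of the signal recognition particle RNA and of RPPH1, but not of RMRP or 7SK, and these counts are the ones that selected the members. RMRP was most like the protein-coding genes GPR85 (0.974), PER1 (0.960) and PSENEN (0.960), and RPPH1 like RPL36A-HNRNPH2 (0.969), U6 (0.957) and LMBR1L (0.957). 7SK was most like AK316321 (0.996), KLHL5 (0.994) and C14orf79 (0.993), out of 8659 rows with enough range.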

How the data were processed

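RNA of 5 TOV21G libraries was compared. The authors deposited expected counts per gene as whole numbers and FPKM values, named so per the file headers. The submitters' processing notes name RSEM 1.2.3, edgeR and hg19. The sources used here give no aligner or annotation version. The DMSO column was taken as the vehicle library, since the labels hold 1 vehicle sample. Of the table, 2 blank rows were left out.

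The members and gene lists were chosen with earlier results of these data known. The genes named are all members, up to 4 genes per list (the 2 highest and the 2 lowest in shHDAC6 over shControl), the 3 rows most like each member, and HDAC6. Named outside that rule were Y_RNA, BCYRN1, U1, the vault RNAs and NAPSA, all under a mean of 5 CPM. SNORD97 and the genes called with a library left out were also named outside it. Of the 5 members, 5 had a mean of at least 5 CPM.

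Pairs have 1 library a side and no test: log2 folds were computed from TMM-scaled CPM (prior count 2), and intervals are exact Poisson (levels) or exact binomial (ratios). The pooled fit used edgeR 4.0.16 in R 4.3.3 (robust quasi-likelihood, genes with at least 1 CPM in 2 libraries, 2 residual degrees of freedom, Benjamini-Hochberg adjustment), with DESeq2 1.42.0 and limma 3.58.1 as alternatives. Standard errors were taken from the F statistic. The p-values and standard errors of that fit measure only the spread between these libraries, with 1 library per treatment. Differences between the treatments and technical spread cannot be told apart in it. Scripts were tested on simulated data. Alternatives covered normalization, filter, prior count, unit, control library, covariate and leaving out each library. The promoter table at hand held 0 of the genes whose sequences are shown, so no promoter was analysed here. Sequences of U6 and the signal recognition particle RNA are not reported here.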

Additional observations from a re-analysis of the deposited data

How the results depend on the processing

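Across 155 alternative values of the members' folds in single pairs, 0 changed sign and 2 crossed 2-fold, both of U6 with shControl in place of vehicle (1.13 in ACY1215 and 1.07 in CAY10603). Scaling by the total count moved the median of all genes in ACY1215 over vehicle from 0.00 to -0.10 on the log2 scale. With the total count without the members, an alternative chosen after seeing the data, the signal recognition particle RNA had 2.01 in shHDAC6, 1.03 in ACY1215 and 0.36 in CAY10603.

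Counts of all genes at 2-fold depended on the filter and the control, and the cause was not tested. Without a filter on CPM there were 1732 in shHDAC6 over shControl (74 with it), 4913 in ACY1215 over vehicle (505), 3416 in CAY10603 over vehicle (29), 3949 in CAY10603 over ACY1215 (353) and 5635 in shControl over vehicle (151). With vehicle in place of shControl there were 128 in shHDAC6 (31 higher and 97 lower, against 47 and 27 with its own control), and with shControl in place of vehicle 324 in ACY1215 (196 and 128, against 179 and 326) and 120 in CAY10603 (92 and 28, against 3 and 26). With the mean of both controls there were 308 in ACY1215 (130 and 178), 88 in shHDAC6 (20 and 68) and 22 in CAY10603 (22 and 0). The balance of higher and lower rows turned in all 3 interventions when the other control was used.

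With a library left out, edgeR called between 0 and 4 genes at an adjusted p under 0.05. The 4 without ACY1215 were EIF3CL, LOC100505876, BC017214 and HIST2H3C, and 3 without vehicle were GTF2IP1, BC007880 and CR749695. None of these is a member. Experiment type, which sets each intervention beside its own control, was in the pooled fit, and without it edgeR also called 0 genes (69 at an unadjusted p under 0.05). No paired analysis by replicate was possible because the labels give no replicate numbers. U6 rests on 128 to 1464 reads, and each treatment on 1 library.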
